A study of Danio rerio with 12 samples.

Results

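Keratins krt4, krt5, krt8, krt18 and cyt1, the ictacalcin gene icn2 and the actinodin genes and1 and and2 were followed as a set of 8 genes, found by name among the 27829 features with an exon length, in libraries of green fluorescent cells and of the remaining cells sorted from whole zebrafish (Danio rerio) embryos and larvae. Each of 6 experiments gave 1 GFP-negative and 1 GFP-positive library, so the 12 libraries hold no replicates and no difference was tested. At 24 h after fertilization the ETvmat2:GFP enhancer trap line and the Tg(otpb.A:egfp)zc48 line, driven by an otpb enhancer, were profiled from total RNA by NanoCAGE, a method that reads capped 5′ ends. At 36 and 48 h cells carried a th:Gal4VP16 driver with a UAS:EGFP responder, and at 72 and 96 h a th:GFP BAC, a bacterial artificial chromosome with the tyrosine hydroxylase gene. These later libraries were made from polyadenylated RNA after amplification. All embryos carried the transgene of their line, and the GFP-negative cells came from the same lines. Per the submitters' design text, the th:Gal4 and th:GFP lines label catecholaminergic neurons poorly at early stages, and the vmat2 and otpb lines show GFP in other cell populations later on. Line, age and assay change together between most experiments, so values were compared within a pair, and between 36 and 48 h of the th:Gal4 line.

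Keratins are the intermediate filament proteins of epithelia. A type II keratin pairs with a type I keratin, and such pairs polymerise into the filaments that give skin its mechanical strength. The zebrafish embryo is covered by a bilayered epidermis, with a superficial periderm over a basal layer that rests on the basement membrane. Ictacalcin belongs to the S100 family of calcium-binding proteins and was described from epithelia of fish. Actinodins are structural proteins of the actinotrichia, the spicules that stiffen the larval fin fold before bony rays form.

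The type II keratins are krt4 (ENSDARG00000017624, chr6:39239362-39243891 on Zv9), krt5 (ENSDARG00000058371, chr23:10280085-10284347) and krt8 (ENSDARG00000058358, chr23:10355854-10360516). The type I keratins are krt18 (chr23:10454077-10457982) and cyt1 (ENSDARG00000092947, chr19:5986623-5988852). The gene icn2 (ENSDARG00000055514) lies at chr16:25726344-25730386, and1 (ENSDARG00000088514) at chr24:27076744-27079580 and and2 (ENSDARG00000079302) at chr2:31480049-31484497. The genes krt5, krt8 and krt18 thus share chromosome 23. In the vmat2 table, the only one whose unique reads were used, at least 95.5% of the reads of krt4, krt5, krt8 and krt18 were unique in either library. The feature cyt1 overlaps another keratin, zgc:92533 (a RefSeq synonym of krt91), and only 0 of its 12 GFP-negative and 15 of its 141 GFP-positive reads there were unique. Every value given for cyt1 is therefore uncertain, since reads may be split between these copies.

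Depth differed by experiment: exon reads per library numbered 495373 to 1367216 in the 24 h experiments, 21326333 to 27682819 in the th:Gal4 ones and 52869 to 79653 in the th:GFP ones. A level is given in CPM, the reads of the gene per 1000000 exon reads of its library. A difference is the log2 ratio of GFP-positive over GFP-negative after TMM scaling, with the exact 95% interval of the read ratio in brackets, which covers counting error only. A gene was considered where the library with its higher CPM held at least 5 CPM and 20 reads. A gene can thus be considered through its higher library alone, so that at low depth genes with a difference enter more readily. Scaling by library size alone shifts the scaling factor, and with it the log2 ratio of any gene with more than a few reads, by about 0.63 (vmat2), 0.43 (otpb), -0.74 (36 h), 0.14 (48 h) and 0.23 (72 h). Of genes for catecholamine synthesis and storage, th, the rate-limiting enzyme, had 0 GFP-negative and 15 GFP-positive reads in the vmat2 pair, and 0 and 1 in the otpb pair. The later counts of th were 18 and 44 (36 h), 31 and 272 (48 h), 0 and 13 (72 h), then 0 and 10 (96 h). At 36 h the others of the list did not all follow: GCH1, of cofactor synthesis, had 415 and 227 reads (-0.22) and the transporter slc18a2 8 and 0, while ddc had 24 and 107 and dbh 4 and 204. The downstream enzymes ddc and dbh had no read in either pair at 24 h.

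**Figure D1:**
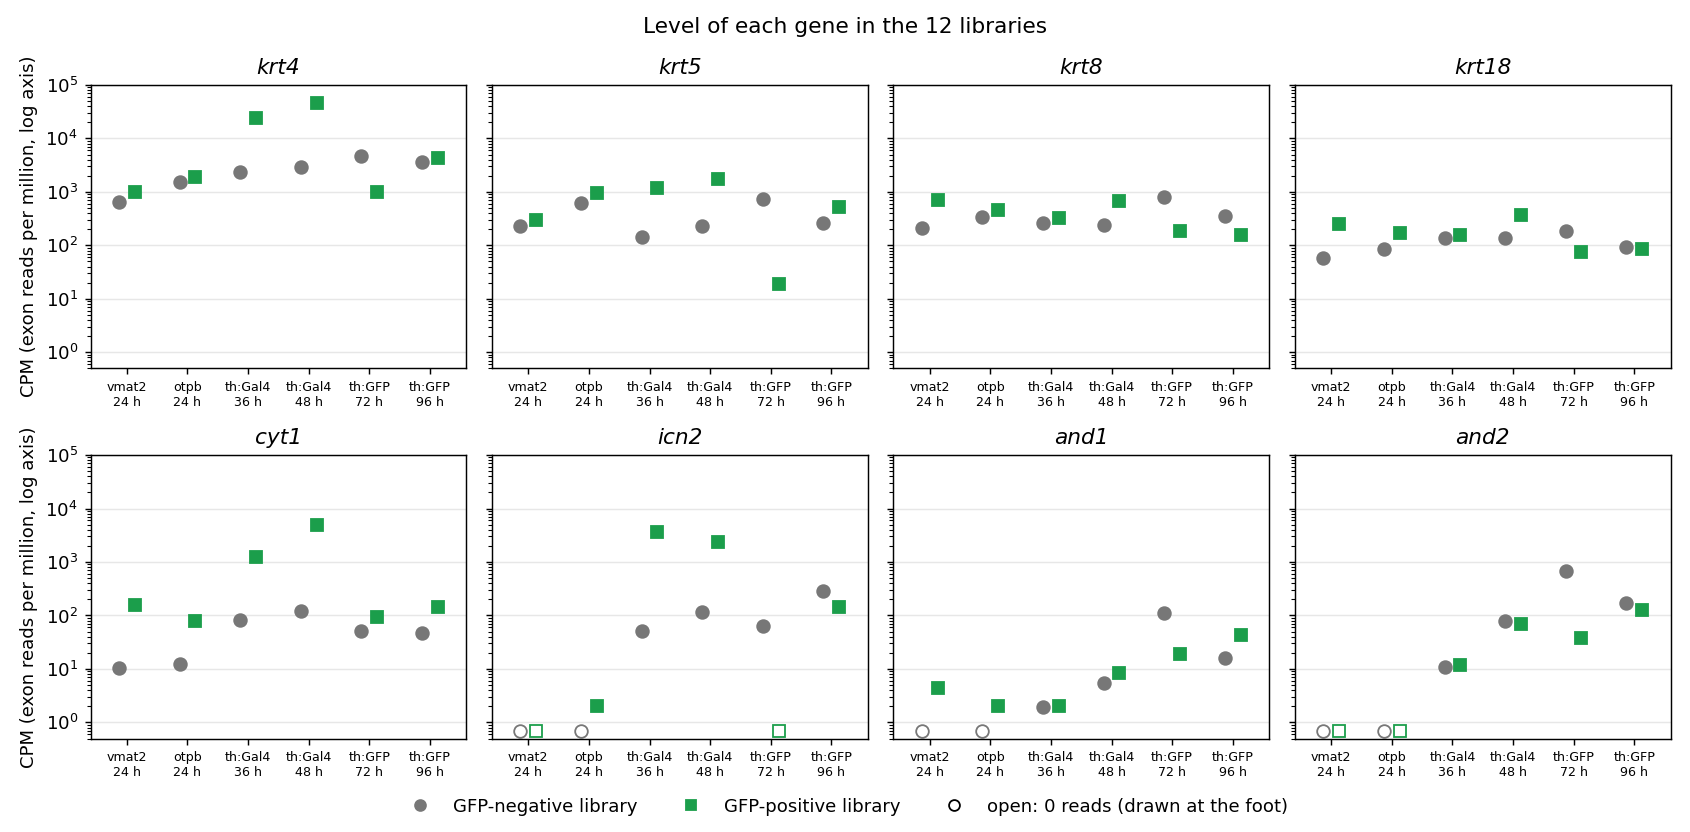
CPM of each of the 8 genes (log axis) in the GFP-negative (grey circles) and GFP-positive (green squares) library of each experiment, with open symbols at the foot for 0 reads. At 36 and 48 h krt4, krt5, cyt1 and icn2 are set wide apart between the libraries, while the and1 and and2 symbols lie close together.

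Summed over the 8 genes, the th:Gal4 libraries read as GFP-positive held the largest shares of these transcripts. The column headers of 5 experiments do not name their libraries, so their direction was taken from the vmat2 table. The sheet names of all tables give GFP-negative against GFP-positive, in that order. Read this way, th had more reads in the GFP-positive library at 36 and 48 h. At 36 h ddc and dbh also had more there, while GCH1 and slc18a2 had fewer. At 48 h GCH1 (780 and 3069 reads), ddc (57 and 241), dbh (34 and 49) and slc18a2 (4 and 22) had more. If the 36 and 48 h tables ran the other way, the GFP-negative cells would hold these shares and every direction given for them would turn. The th:Gal4 libraries read as GFP-positive held 3.06% (36 h) and 5.63% (48 h) of all exon reads, against 0.306% and 0.382% in the matching GFP-negative libraries. The log2 ratio of the sum was 4.07 [4.05, 4.08] for the 36 h pair and 3.74 [3.74, 3.75] for the 48 h pair, that is 16.7-fold and 13.4-fold higher. Library size scaling put these ratios at 3.32 and 3.88. The 72 h sum was 578 GFP-negative against 75 GFP-positive reads, 5.98-fold lower in the latter. At 96 h it was 308 and 387 reads, a log2 ratio of 0.08 [-0.14, 0.30] that includes 0. At 24 h the ratio was 0.44 [0.34, 0.54] in the vmat2 and 0.04 [-0.05, 0.12] in the otpb pair. In bulk libraries, fewer cells of a type and less RNA per cell cannot be told apart.

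By experiment, 5 of the 7 genes considered at 36 h were at least 2-fold higher in GFP-positive cells, where 13.9% of all 9935 features considered were, and 0 were lower, beside 10.4%. At 48 h the figure was 6 of 8 genes, beside 17.6% of 10030 features, with 0 lower, beside 6.53%. The vmat2 pair had 3 of 5 genes at least 2-fold higher, beside 24.9% of 6303 features, and 0 lower, beside 15.7%. The otpb pair had 1 of 5 higher, beside 10.2% of 4666 features, and 0 lower, beside 25.8%. In both of these pairs cyt1, counted as higher, passed the read minimum through the GFP-positive library alone. At 72 h none of the 4 genes considered was at least 2-fold higher, beside 5.06% of 415 features, and all 4 were at least 2-fold lower, beside 22.7%. Of these, krt5 (59 and 1 reads), krt8 (65 and 10) and and2 (53 and 2) passed the read minimum through the GFP-negative library alone. The count of lower genes thus partly follows from that minimum. The genes left out had 15 and 4 (krt18), 4 and 5 (cyt1), 5 and 0 (icn2) and 9 and 1 reads (and1). At 96 h 0 of 3 genes were higher, beside 3.73% of 456 features, and 1 of 3 lower, beside 7.02%. The lower gene, krt8 (23 and 11 reads), passed the read minimum through the GFP-negative library alone. For krt5 (17 and 37 reads) it was the GFP-positive library alone, so the 96 h counts also partly follow from that minimum. The median log2 ratio of the considered genes was 3.75 at 36 h and 2.08 at 48 h, and over all considered features -0.09 and -0.08. With 3 to 8 genes per experiment these counts describe the genes and no more.

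The gene krt4 encodes a type II keratin of the zebrafish epidermis and dominated the set. Its level in GFP-negative cells was 648 CPM (vmat2), 1520 CPM (otpb), 2370 CPM (36 h), 2900 CPM (48 h), 4620 CPM (72 h) and 3600 CPM (96 h). In GFP-positive cells it was 1010, 1890, 24100, 46200, 984 and 4270 CPM, in the same order. The GFP-positive level thus stood far above its partner at 36 and 48 h, far below it at 72 h and close to it in the other 3 pairs. With 548230 and 1156549 reads, krt4 was the feature with the most exon reads of all in both th:Gal4 GFP-positive libraries, taking 2.41% and 4.62% of the reads. In the GFP-negative partners it ranked 96 and 67 by reads. The log2 ratio was 4.09 [4.08, 4.10] (36 h, or 3.35 by library size scaling), 3.86 [3.85, 3.87] (48 h) and -2.42 [-2.91, -2.04] (72 h). At 24 h it was 0.01 [-0.13, 0.15] in the vmat2 pair and -0.12 in the otpb pair, where library size scaling turned it to 0.32.

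The other epidermal type II keratin, krt5, followed krt4 at 36 and 48 h. It had 3112 GFP-negative and 26736 GFP-positive reads (36 h), then 6243 and 42923 (48 h), log2 ratios of 3.75 [3.70, 3.80] and 2.79 [2.75, 2.83]. Library size scaling put the 36 h ratio at 3.01. At 24 h the pairs held 266 and 273 reads (vmat2) and 863 and 479 reads (otpb), with log2 ratios of -0.24 and 0.18. The libraries of each 24 h pair thus differed little in krt5. The 72 h counts were 59 GFP-negative and 1 GFP-positive (-4.11, interval -10.85 to -2.98). Those for 96 h were 17 and 37 (0.81, interval 0.01 to 1.80).

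The keratins krt8 (type II) and krt18 (type I) are partners in simple epithelia, and in both th:Gal4 pairs their ratios were alike and smaller than those of krt4 and krt5. At 36 h krt8 had 5659 GFP-negative and 7452 GFP-positive reads, and krt18 had 2901 and 3489. The log2 ratios, 1.04 and 0.91, shrank to 0.30 and 0.17 under library size scaling, where krt8 no longer passes the 2-fold mark. With median-of-ratios size factors krt8 was at 1.06. At 48 h the ratios were 1.36 [1.32, 1.40] for krt8 and 1.34 [1.29, 1.40] for krt18, from 6757 and 17165 reads and from 3727 and 9385 reads. Within the vmat2 pair krt8 (243 and 636 reads) and krt18 (67 and 232 reads) were higher in the GFP-positive cells, at 1.11 [0.90, 1.33] and 1.49 [1.12, 1.93], where krt4 and krt5 were at 0.01 and -0.24. Library size scaling put these at 0.64 and 0.39, and krt8 and krt18 at 1.73 and 2.11. In the otpb pair the values were 0.05 (458 and 232 reads) and 0.54 (119 and 85 reads). At 72 h krt8 was lower in the GFP-positive library, with 65 against 10 reads (-2.15), and krt18 had 15 against 4. At 96 h krt8 had 23 and 11 reads (-1.16, interval -2.49 to -0.22), and krt18 6 and 6.

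Type I keratin cyt1, a marker of the outer epidermis of the zebrafish embryo, was the only keratin of the 5 that was at least 2-fold higher in GFP-positive cells in each of the 4 deeper pairs. It had 12 and 141 reads in the vmat2 pair (3.10, interval 2.43 to 4.26) and 17 and 39 in the otpb pair (2.07, interval 1.37 to 3.14). Counts were 1741 and 27783 (36 h, 4.64, or 3.9 by library size scaling), then 3300 and 120898 (48 h, 5.21 or 36.9-fold). At 72 and 96 h it had no more than 10 reads per library, and both intervals include 0. The overlap with zgc:92533 applies to all these counts. That keratin itself had 49 and 119 reads in the vmat2 pair (0.98) and 130 and 141 in the otpb pair (1.13). It had 12846 and 72251 reads (36 h), then 22875 and 218510 (48 h), log2 ratios of 3.14 and 3.27.

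The S100 gene icn2 had the largest difference of the 8 genes at 36 h. Its level was 50.3 CPM in GFP-negative and 3640 CPM in GFP-positive cells, from 1072 and 82941 reads, a log2 ratio of 6.92 [6.83, 7.01] or 121-fold. Library size scaling put this ratio at 6.18, outside the bracket. At 48 h its level was 118 and 2400 CPM, from 3263 and 60007 reads, a ratio of 4.21 [4.16, 4.26] or 18.5-fold. At 24 h the gene was at the limit of detection: both vmat2 libraries had 0 reads, which allows up to 2.56 and 3.27 CPM, and the otpb libraries had 0 and 1. At 72 h there were 5 GFP-negative and 0 GFP-positive reads, the latter allowing up to 56.7 CPM, and at 96 h 18 and 10 (-0.95, interval -2.37 to 0.10). The related ictacalcin feature icn had 7434 and 134371 reads (36 h), then 10789 and 129897 (48 h), log2 ratios of 4.82 and 3.60. How reads of icn and icn2 were kept apart is not given in the sources used here.

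The actinodins differed less between the libraries at 36 and 48 h than krt4, krt5, cyt1 and icn2 did. At 36 h and1 had 41 GFP-negative and 46 GFP-positive reads and and2 237 and 265. Their log2 ratios, 0.78 (interval 0.17 to 1.46) and 0.80 (interval 0.55 to 1.07), both became 0.07 under library size scaling. At 48 h and1 had 153 and 209 reads (0.46, interval 0.15 to 0.77) and and2 2147 and 1728 (-0.30, interval -0.39 to -0.21). The measured ratios were therefore below 2-fold in both genes at both ages, but both 36 h intervals reach past 2-fold. At 36 h and1 was not among the genes considered. At 24 h and2 had no read in any of the 4 libraries, and and1 had 4 and 1 in the GFP-positive libraries only. At 72 h and2 stood at 665 CPM in the GFP-negative cells and 37.8 CPM in the GFP-positive cells, from 53 and 2 reads (-3.52, interval -7.45 to -2.44), and and1 had 9 and 1. At 96 h and2 had 11 and 9 reads and and1 had 1 and 3. Another actinodin, and3, had 29 and 111 reads (36 h, 2.49), 787 and 1243 (48 h, 0.67) and 68 and 5 (72 h, -3.02), and and4 had at most 6 reads in any library.

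**Figure D2:**
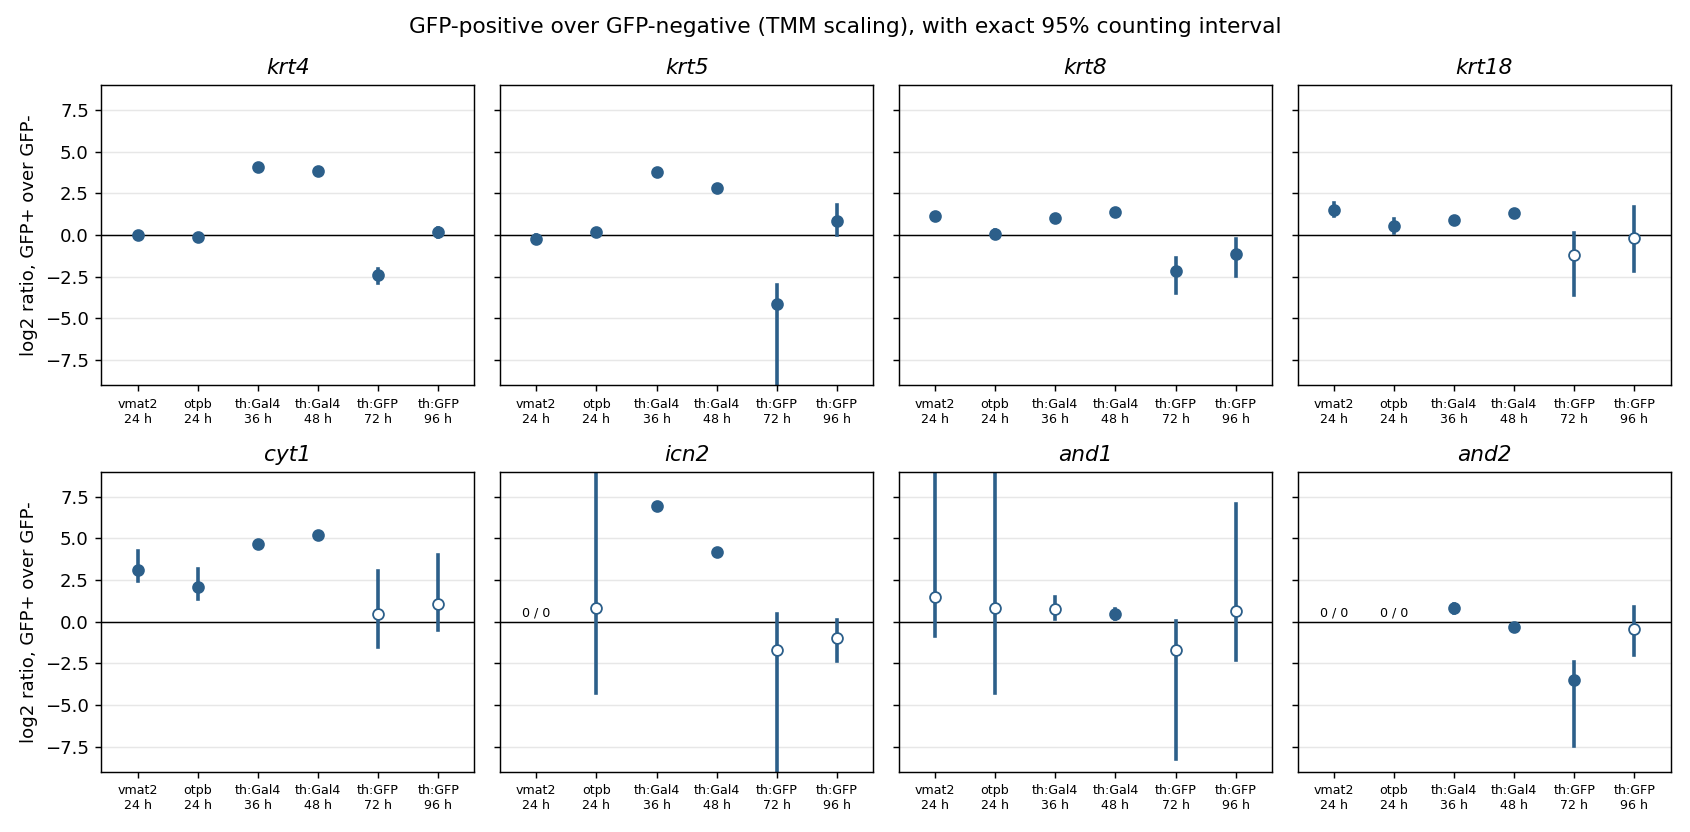
Log2 ratio of GFP-positive over GFP-negative for each gene and experiment after TMM scaling, with the exact 95% counting interval as a bar, clipped at the frame (filled: gene considered, open: too few reads, 0 / 0: no read in either library). At 36 and 48 h krt4, krt5, cyt1 and icn2 lie between 2.79 and 6.92, above krt8, krt18, and1 and and2.

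A comparison inside each library needs no scaling between libraries. The reads of krt8 and krt18 together served as the base for this ratio, a grouping chosen after their values were seen. Per krt8 and krt18 read, krt4 was 8.50-fold (interval 8.25 to 8.76) higher in GFP-positive cells of the 36 h pair and 5.69-fold (5.56 to 5.83) in those of the 48 h pair. For krt5 the values were 6.72 and 2.71, for cyt1 12.5 and 14.5, and for icn2 60.5 and 7.26. The vmat2 pair turned the order: krt4 was at 0.436 (0.369 to 0.513) and krt5 at 0.367 (0.295 to 0.456) of its GFP-negative share, while cyt1 was at 4.20. The summed actinodins were at 0.875 (36 h, 0.743 to 1.03) and 0.333 (48 h, 0.312 to 0.355). For krt8 per krt18 read the ratio was 1.09 (36 h, 1.03 to 1.16) and 1.01 (48 h, 0.962 to 1.06). At 24 h the ratio lay further from 1, at 0.756 (vmat2, 0.546 to 1.04) and 0.709 (otpb, 0.509 to 0.991), though the vmat2 interval includes 1. At 72 and 96 h it was 0.577 and 0.478, with intervals that include 1.

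**Figure D3:**
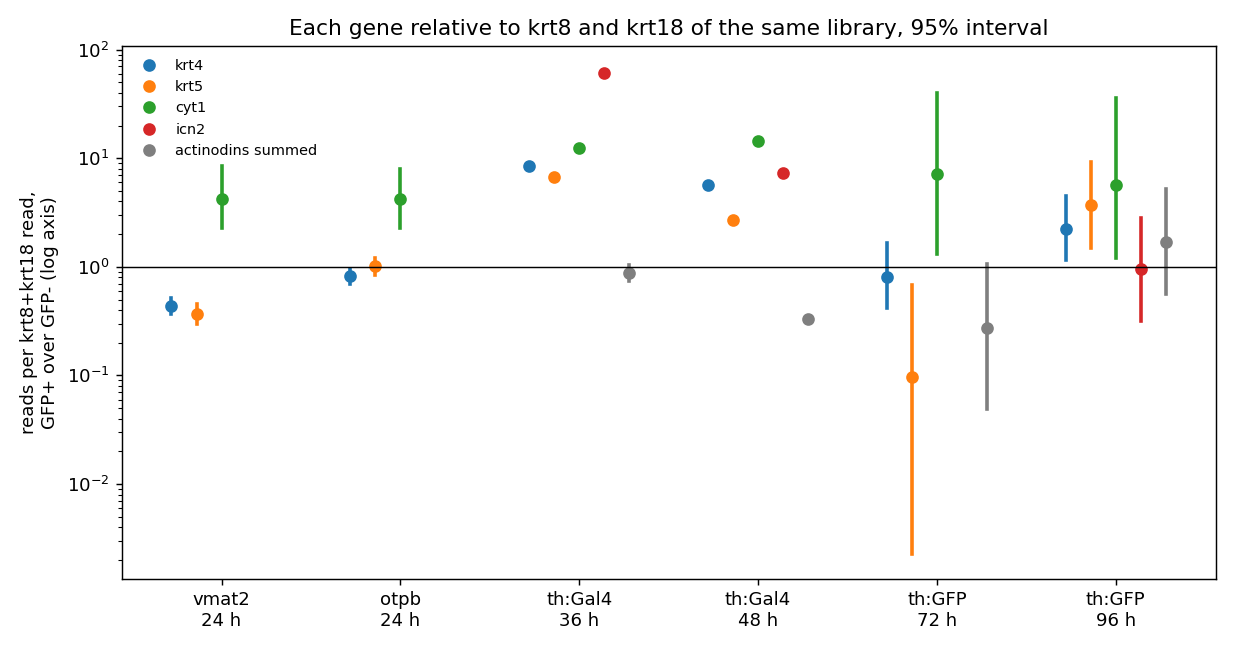
Reads of each gene per krt8 and krt18 read, GFP-positive over GFP-negative (log axis, 95% counting interval), by experiment, for genes with enough reads. At 36 and 48 h krt4, krt5, cyt1 and icn2 lie above 1 (2.71 to 60.5) and the actinodins below it (0.875 and 0.333), whereas krt4 and krt5 lie below 1 in the vmat2 pair.

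Levels of different genes were compared per exon length, in the authors' RPKM (reads scaled by exon length and by mapped reads). This scale suits the mRNA libraries, whereas NanoCAGE reads come from 5′ ends and are not tied to length. On it krt4 ranked highest of the 8 genes in all 12 libraries. In the th:Gal4 GFP-positive cells the order at 36 h was krt4 (6744 RPKM), icn2 (5635 RPKM), cyt1 (478.1 RPKM), krt5 (328.5 RPKM), krt8 (77.99 RPKM), krt18 (57.18 RPKM), and2 (4.018 RPKM) and and1 (0.9113 RPKM). The order was the same at 48 h, with krt4 at 15210 RPKM, icn2 at 4358 RPKM, cyt1 at 2224 RPKM and krt5 at 563.7 RPKM. GFP-negative cells at 36 h also had krt4 (633.6 RPKM) and icn2 (74.37 RPKM) on top, but krt8 (60.47 RPKM) stood above cyt1 (30.59 RPKM) there. Summed type II over summed type I keratin of the set, in RPKM, was 9.26 in GFP-negative and 13.4 in GFP-positive cells at 36 h, and 9.63 and 6.68 at 48 h. Keratins outside the set were left out, among them cyt1l with 13389 and 182870 reads at 36 h. These values are thus not the balance of all keratins, and their type I side includes the uncertain cyt1. The ratio of krt8 to krt18 RPKM stayed between 1.16 and 1.36 in these 4 libraries. The ratio of krt4 to krt8 RPKM was 10.5 for the GFP-negative and 86.5 for the GFP-positive cells of the 36 h pair.

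Between 36 and 48 h the th:Gal4 pairs shared line and assay, so that the libraries of each sort could be set against each other, with age and library not to be told apart and the same 4 libraries used as above. In GFP-positive cells 3 of 8 genes (cyt1, and1 and and2) were at least 2-fold higher at 48 h, beside 21.3% of 10052 features, and 1 (icn2) lower, beside 14.7%. Library size scaling gave 5 higher (krt8 at 1.07 and krt18 at 1.29 as well) and 0 lower, with icn2 at -0.60. In GFP-negative cells 3 of 8 genes (icn2, and1 and and2) were at least 2-fold higher, beside 5.94% of 9754 features, and 0 lower, beside 6.47%. In both sorts and1 passed the read minimum through the 48 h library alone. The counts of higher genes thus partly follow from that minimum. The log2 ratio of 48 over 36 h was 2.06 [1.87, 2.25] for and2 in GFP-positive and 3.15 [2.97, 3.36] in GFP-negative cells. For and1 it was 1.51 and 1.84. Both actinodins were therefore higher at 48 h in either sort. For icn2 the directions were opposite, with -1.11 in GFP-positive and 1.59 in GFP-negative cells, and this difference was not tested. For cyt1 the ratios were 1.48 and 0.91, for krt4 0.43 and 0.66, and for krt5 0.04 and 0.99. For krt8 and krt18, library size scaling put the GFP-negative values at -0.12 and -0.01, against 0.24 and 0.35 with TMM.

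Other keratin genes were set beside the 5. Of 14 matched, 10 were considered at 36 h and 9 were at least 2-fold higher in GFP-positive cells, beside 13.9% of all features considered. There 0 were lower, beside 10.4%, and the median log2 ratio was 3.63. At 48 h 9 of 10 were higher, beside 17.6%, and 1 lower, beside 6.53%, with a median of 2.26. The highest at 36 h were krt1-19d (29 and 1092 reads, 5.77) and zgc:109868, a RefSeq synonym of krt92 (327 and 9902 reads, 5.56). The lowest were zgc:77517, a synonym of krt18b (944 and 571 reads, -0.08), and krt15 (111 and 163 reads, 1.18). At both 36 and 48 h krt1-19d passed the read minimum through the GFP-positive library alone. The 1 lower gene at 48 h passed it through the GFP-negative library alone. The counts at these ages thus partly follow from that minimum. At 72 h all 3 considered were at least 2-fold lower, beside 22.7% of all features, a count on which the read minimum also bears. In the vmat2 pair 3 of 7 were higher, beside 24.9%, and 1 lower, beside 15.7%. They ran from si:dkeyp-113d7.7 (20 and 2 reads, -2.66), which passed the read minimum through the GFP-negative library alone, to zgc:92061 (33 and 151 reads, 1.86). Together these 14 genes took 1.20% and 3.29% of the exon reads of the GFP-positive cells at 36 and 48 h, and 0.137% and 0.188% in GFP-negative cells. Of intermediate filament genes of other kinds, 3 of 9 considered were higher at 36 h, beside 13.9%, and 0 lower, beside 10.4%. The highest were desma of muscle (82 and 256 reads, 2.26) and lmna of the nuclear lamina (123 and 271 reads, 1.77). Of these, desma passed the read minimum through the GFP-positive library alone. The lowest was inab of neurons (2380 and 915 reads, -0.73).

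Among S100 genes other than icn2, 8 of 8 considered at 36 h and 9 of 9 at 48 h were at least 2-fold higher in GFP-positive cells, with median log2 ratios of 3.18 and 2.97. Over all features 13.9% and 17.6% were higher. They ran at 36 h from s100t (81 and 151 reads, 1.52) to s100a11 (16 and 1188 reads, 6.66). At that age s100t and s100a11 passed the read minimum through the GFP-positive library alone. Between the GFP-negative libraries of 36 and 48 h 7 were considered. The counts at 36 and 48 h thus partly follow from that minimum. In the vmat2 pair only s100u (45 and 183 reads, 1.71) was considered, and at 72 h 2 of 2 were lower, beside 22.7%. The read minimum bears on that 72 h count too.

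Genes of the periderm and superficial epidermis other than the 8 were mostly higher in the GFP-positive cells of the th:Gal4 pairs. Of 28 matched, 26 were considered at 36 h, with 22 at least 2-fold higher and 1 lower (median 3.27), and 27 at 48 h, with 20 higher and 1 lower (median 3.05). Over all features 13.9% were higher and 10.4% lower at 36 h, and 17.6% and 6.53% at 48 h. The highest at 36 h were si:dkey-165a24.2, a RefSeq synonym of ponzr3 (5 and 689 reads, 7.18), and zgc:112355, a transglutaminase gene (9 and 892 reads, 6.94). Both passed the read minimum through the GFP-positive library alone. The lowest was the feature named klf4, a synonym of the transcription factor klf17 (649 and 112 reads, -1.87). It passed the minimum through the GFP-negative library alone. Between the GFP-negative libraries of 36 and 48 h only 19 periderm genes were considered. The periderm counts and medians at 36 and 48 h thus partly follow from that minimum. Of 22 matched genes of basal epidermis and epithelial adhesion, 18 were considered at both ages, with 12 and 10 higher and 0 lower (medians 1.42 and 1.51). The E-cadherin gene cdh1 (755 and 5867 reads, 3.60) and the claudin gene cldnb (681 and 4730 reads, 3.44) were highest at 36 h. The basal integrin gene itgb4 (1618 and 857 reads, -0.27) and the laminin gene lamb4 (177 and 106 reads, -0.09) were lowest. In the vmat2 pair 5 of 9 periderm genes were higher and 0 lower, led by cldn7b (1 and 34 reads) and grhl1 (6 and 71 reads), and 9 of 13 basal and adhesion genes were higher and 1, itgb4 (33 and 10 reads), lower. Here cldn7b and grhl1 passed the read minimum through the GFP-positive library alone, and itgb4 through the GFP-negative one. These counts thus partly follow from that minimum. The shares over all features of that pair were 24.9% higher and 15.7% lower. In the otpb pair 4 of 12 periderm genes were higher and 3 lower, and 1 of 11 basal and adhesion genes higher and 3 lower. Of all features there, 10.2% were higher and 25.8% lower. The basal and adhesion counts and the lower periderm count are close to these shares. Few were considered later: 3 of 4 periderm genes and 2 of 2 basal and adhesion genes were lower at 72 h, and 1 of 2 periderm genes at 96 h, with 0 higher. Over all features 22.7% were lower at 72 h and 7.02% at 96 h. The read minimum bears on these counts of lower genes as well.

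Fin fold and apical ridge genes, to whose tissue the actinodins belong, were mostly within 2-fold at 36 and 48 h. Of 25 considered at 36 h, 1 was at least 2-fold higher (frem2a, of the epidermal basement membrane, 148 and 266 reads, 1.48) and 4 lower, among them the homeobox genes msxe (-1.56) and dlx2b (-1.52). At 36 h msxe and dlx2b passed the read minimum through the GFP-negative library alone. At 48 h 2 of 22 were higher and 2 lower. Over all features 13.9% were higher and 10.4% lower at 36 h, and 17.6% and 6.53% at 48 h. The medians of -0.11 and -0.14 lay next to those of all features. At 72 h all 3 considered were lower, beside 22.7%: and3 and the collagen genes col1a1a (173 and 19 reads, -2.71) and col1a2 (55 and 11 reads, -1.80). All 3 passed the read minimum through the GFP-negative library alone, so that this count partly follows from the minimum.

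**Figure D4:**
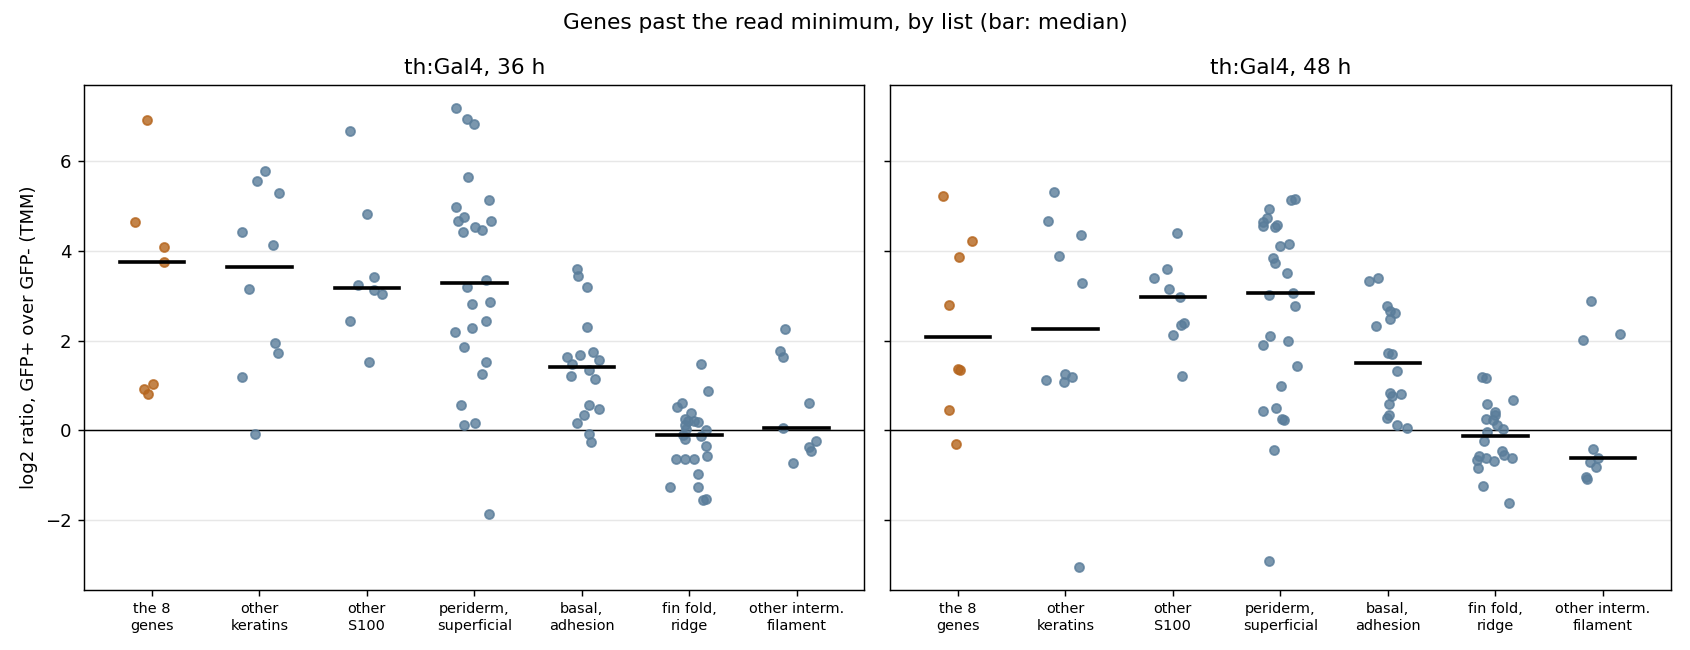
Log2 ratio of GFP-positive over GFP-negative at 36 and 48 h (TMM) for each considered gene of the 8 and of the lists set beside them, with the median as a bar. Medians lie at 3.75 and 2.08 for the 8 genes, near 3 for S100 and periderm genes, at 1.42 and 1.51 for basal and adhesion genes and at -0.11 and -0.14 for fin fold genes.

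Summed markers of other embryonic surface cells were also higher in the GFP-positive cells of both th:Gal4 pairs, but not always elsewhere. Of 6 hatching gland genes considered, 5 were at least 2-fold higher and 1 lower at 36 h, and 4 and 1 at 48 h. The lower gene at 36 h was klf4 (649 and 112 reads, -1.87). Of ionocyte genes 4 of 5 were higher at 36 h and 8 of 9 at 48 h, with 0 lower. At 36 h ca15a (64 and 323 reads) and he1b (86 and 67242 reads) passed the read minimum through the GFP-positive library alone. There klf4 passed it through the GFP-negative one. Between the GFP-negative libraries of 36 and 48 h only 3 ionocyte genes were considered. The counts of both lists thus partly follow from that minimum. The ionocyte gene atp6v1al was at -0.15 at 36 h. Over all features 13.9% and 17.6% were higher, and 10.4% and 6.53% lower. The log2 ratio of the summed hatching gland list was 2.81 in the otpb pair and -0.68 at 72 h, where that of the 5 keratins was 0.04 and -2.43, and the summed ionocyte list was at -0.64 in the otpb pair. The 72 h hatching gland value rests on 20 and 9 reads, with an interval of -2.11 to 0.41. Library size scaling put the otpb ionocyte value at -0.21. For 48 over 36 h in GFP-positive cells the hatching gland sum was at -1.92 and the keratin sum at 0.49. The hatching gland list of 6 genes, with the hatching enzymes he1a and he1b, took 0.0134% of the GFP-negative and 1.17% of the GFP-positive reads at 36 h, and 0.0273% and 0.441% at 48 h. All 6 had reads in both of these GFP-positive libraries. At 24 h the list took 0.00767% and 0.0846% of the reads (vmat2) and 0.0189% and 0.180% (otpb), and at 72 and 96 h at most 0.0314%. The skin ionocyte list of 14 matched genes took 0.0112% and 0.0319% at 36 h and 0.0133% and 0.227% at 48 h, and 1 of the 14, slc9a3.2, had no read in the 48 h GFP-positive library. In the vmat2 pair it took 0.00545% and 0.0464% and in the otpb pair 0.00987% and 0.00848%, with 4 and 9 of its genes at 0 in the GFP-positive library. Their part in the keratin and icn2 differences was not tested.

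The genes most like the summed keratins over the 4 deeper pairs were found by the Euclidean distance of their 4 log2 ratios, among 3407 genes considered in all 4. They were cast, the calpain inhibitor calpastatin (distance 0.68), ttna, a titin of muscle (0.71), si:dkey-72g4.2 (1.18) and gsnb, a gelsolin that severs actin filaments (1.49). For cast the ratios were -0.01 (vmat2), 0.15 (otpb), 3.61 (36 h) and 3.35 (48 h). Closest to the summed actinodins were si:ch211-22i13.2 (0.28), derl1 (0.44), vcanb (0.54) and si:ch211-273k1.4 (0.56), but the actinodin ratios at 24 h rest on at most 4 reads.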

How the data were processed

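Per the labels' protocols, cells of dissociated embryos were sorted by GFP, and RNA was taken to NanoCAGE (24 h) or amplified for mRNA sequencing (36 to 96 h). Zv9 is named by the sheets of the 24 h experiments only, and an aligner is not given in the sources used here. For the vmat2 experiment the authors deposited counts of total and unique exon reads and RPKM values for its named libraries, per the file headers. In all 6 tables of 32312 features the authors deposited a difference and a fold change between the RPKM of a pair, recorded with the unit score. The other 5 tables do not name their libraries in the headers, so 174 columns of library values were not used. Reads were recovered from difference, fold change and exon length, all values within 0.02 of a whole number. In the vmat2 table they equalled the deposited counts in 17237 of 17237 features. The direction was taken from the vmat2 table, whose sheet name gives the same order, GFP-negative against GFP-positive, as those of the other tables. If another table ran the opposite way, its directions would turn.

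Within a pair, counts were scaled by TMM (edgeR 4.0.16, R 4.3.3), with a prior count of 2 for log2 ratios; intervals are exact (Clopper-Pearson, 95%) and a library at 0 was put at a floor of 3 reads. Intervals of a ratio between genes are exact conditional ones, or normal approximations on the log scale where the sum of the 4 counts is large. Because an interval uses reads without the prior count, a log2 ratio of a low gene lies nearer to 0 than its reads. The scaling and intervals were tested on simulated data. Alternatives were library size scaling, DESeq2 1.42.0 size factors, a prior count of 0.5, unique reads, other read minimums (none, or 20 CPM and 50 reads) and, chosen after seeing the data, the sum without krt4. The 8 genes and the lists were chosen with earlier results of these data known, and list genes were matched by name or RefSeq synonym. Beyond the 8, genes named were the 2 highest and 2 lowest of each list at 36 h and in the vmat2 pair and the 4 nearest to each sum. Named after their values were seen were zgc:92533, cyt1l, icn at 48 h, and3, and4, th, GCH1, slc18a2, ddc, dbh, slc9a3.2, col1a1a and col1a2. RPKM of the vmat2 libraries were the deposited ones, and RPKM of the other libraries came from the same recovered values.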

Additional observations from a re-analysis of the deposited data

Results flagged for a closer look

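The keratins krt4, krt5 and krt8 lay on opposite sides of the line in different experiments, with intervals that leave 0 on both sides. The log2 ratio of krt4 was -2.42 in the th:GFP pair at 72 h and 4.09 in the th:Gal4 pair at 36 h. For krt5 it was -4.11 at 72 h, resting on 59 and 1 reads, and 3.75 at 36 h. For krt8 it was -2.15 at 72 h and 1.36 at 48 h. Line, age and depth differ between these pairs and cannot be told apart, and none of the 3 differences was tested.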

How the results depend on the processing

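No paired analysis was possible because each group has 1 library and the labels give no replicate numbers that groups share, and leaving out a replicate was not possible for the same reason. Under library size scaling the summed log2 ratio of the 8 genes was 1.07 (vmat2), 0.47 (otpb), 3.32 (36 h) and 3.88 (48 h), and that of 48 over 36 h was 0.88 in GFP-positive and 0.32 in GFP-negative cells. With median-of-ratios size factors it was 4.08 (36 h), 3.73 (48 h) and 0.33 (96 h), and for 48 over 36 h 0.35 and 0.70. Without krt4, a setting chosen after seeing the data, it was 0.85 (vmat2), 0.23 (otpb), 3.98 (36 h) and 3.31 (48 h), and for 48 over 36 h 0.12 and 0.78. Among values of single genes, library size scaling moved 22, left 22 within their interval and turned krt4 in the otpb pair to 0.32. It also turned krt5 in the vmat2 pair from -0.24, whose interval includes 0, to 0.39. Size factors moved 2. A prior count of 0.5 moved 0 of 45 and unique reads 0 of 6.

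Of the 50 periderm, basal and adhesion genes together, those at least 2-fold higher in the vmat2 pair numbered 14, and 9 with the stricter minimum of 20 CPM and 50 reads; lower ones numbered 1, 3 with no minimum and 0 with the stricter. In the otpb pair higher ones numbered 5, or 9 and 2, and lower ones 6, or 10 and 2. At 36 h lower ones numbered 1, and 2 under library size scaling. At 72 h higher ones numbered 0, and 1 with no minimum, and lower ones 5, or 16 and 2. At 96 h higher ones numbered 0, and 1 with no minimum, and lower ones 1, or 8 and 0. The shares over all features given above apply to the main minimum with TMM only. The cause of these changes was not tested, beyond the number of genes each minimum lets in. Depth limits the 72 and 96 h pairs most: a gene without a read there may stand at up to 37.7 to 56.7 CPM, and with 1 library a group no value carries biological error.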
